A study of Mus musculus with 15 samples.

Results

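The genes described here are the collagens and 6 secreted matrix genes that meningeal and perivascular fibroblasts make in quantity, measured in the hippocampus of mice that lack the glucocorticoid receptor (GR, encoded by Nr3c1), the mineralocorticoid receptor (MR, encoded by Nr3c2) or both. The set was defined by gene symbol, with earlier results of these data known. It takes every gene whose symbol has the form of a collagen chain, together with Ogn, Dcn, Lum, Bgn, Fn1 and Fmod. A gene was kept if a probe stood well above background on at least 3 of the 15 arrays. The array held 50 genes with such symbols on 84 probes. Of these, 47 genes (41 of them collagens) on 70 probes passed, out of 22864 genes tested on the whole array. The genes nearest the threshold were Col4a3, above background on 3 arrays, and Col24a1, on 4 arrays. Col10a1, Col28a1 and Col6a6 were above background on 0 arrays and were not tested.

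RNA came from the whole hippocampus of both hemispheres of male C57BL/6 mice aged about 2.5 months, and each sample was labelled with Cy3 and hybridised to 1 single-colour Agilent array. The 4 dflox controls carried floxed alleles of both receptor genes. The 4 GREmx1-cre mice lacked GR, the 4 MREmx1-cre mice lacked MR and the 3 GRMREmx1-cre mice lacked both, each through Emx1-Cre, which is active in the Emx1 lineage of the dorsal forebrain, mainly excitatory neurons and glia, so that cells of other lineages in the dissected tissue keep the receptors. The labels list no Cre for dflox, and by the series' design the lines lacking 1 receptor were bred from mice floxed for that receptor alone, so Cre and the second floxed gene also differ between groups. The labels do not say whether an RNA came from 1 mouse or from several, and the p-values measure the spread between these samples.

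Collagens are secreted or membrane proteins built from triple helices of chains. Fibrillar collagens form the cables of connective tissue, collagen IV forms the sheet of every basement membrane, fibril-associated collagens and small leucine-rich proteoglycans decorate and space the fibrils, and fibronectin links matrix to integrins. In the brain most fibrillar collagen and most of these proteoglycans come from fibroblasts of the meninges and of the larger vessels, and collagen IV from endothelium, mural cells and astrocytes around them, while some non-fibrillar collagens are made by neurons or by the epithelium of the choroid plexus.

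Levels are log2 intensities after subtraction of the array's own 75th percentile, so that 0 is the 75th percentile of that array, and differences are log2 fold changes with their standard error (SE). Levels of different probes are not compared with each other. The 75th percentile of an array lay between 821 and 1027 intensity units, and between 28083 and 30206 probes of an array stood well above background. No spot of the set was saturated. The level of Nr3c1 fell by 2.24 on the log2 scale in GREmx1-cre, to 21.2% of dflox, and by 1.64 in GRMREmx1-cre, to 32.1% (limma, adjusted p = 1.36e-08 and 7.42e-07), and rose to 145% in MREmx1-cre (adjusted p = 0.00165). The probe of Nr3c2 was at 134% of dflox in GREmx1-cre (adjusted p = 0.0212), at 92.4% in MREmx1-cre (adjusted p = 0.48) and at 80.8% in GRMREmx1-cre (adjusted p = 0.0394). The position of that probe relative to the floxed exon was not checked here, so it does not check the loss of MR. Each genotype lay alone on 1 of 4 slides, and effects of slide and of genotype cannot be told apart. Because whole tissue was measured, fewer cells of a type and less RNA per cell cannot be told apart either.

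Against dflox, 4 of the 47 genes passed the threshold (limma, adjusted p below 0.05 over all genes) in GREmx1-cre, 2 higher and 2 lower, where 3.15% of all genes tested did (2.27% higher, 0.888% lower). In MREmx1-cre 4 of the 47 passed, 1 higher and 3 lower, with 6.81% of all genes (4.21% higher, 2.6% lower). In GRMREmx1-cre 11 passed, 6 higher and 5 lower, with 16.3% of all genes (11.4% higher, 4.84% lower). As shares of the set these are 8.51%, 8.51% and 23.4%, and the differences from the shares over all genes were not tested. Col1a2, a chain of type I collagen, was the only gene of the set called in all 3 comparisons with dflox, lower in each. A further 11 genes were called in 1 or more of them, among which Ogn and Col11a1 were lower in MREmx1-cre and GRMREmx1-cre, Col22a1 was higher in the same groups, and Col2a1 and Col4a6 were higher in GREmx1-cre and GRMREmx1-cre. The 3 comparisons share the dflox arrays.

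Without adjustment, 13, 17 and 18 of the 47 genes had p below 0.05. The median difference of the set was -0.15 in GREmx1-cre, -0.15 in MREmx1-cre and -0.06 in GRMREmx1-cre, beside 0.02, 0.04 and 0.03 over all genes. Differences below 0 were measured for 32, 29 and 24 of the 47 genes, while 44.3%, 41.1% and 43.2% of all genes were below 0. Arrays of the knockout and of dflox did not overlap for 8 genes in GREmx1-cre, 9 in MREmx1-cre and 16 in GRMREmx1-cre, with 12.7%, 13.9% and 29.4% of all genes. Centring each array on its median in place of the 75th percentile changed the split of the calls from 2 higher and 2 lower to 1 and 3 in GREmx1-cre, and from 6 and 5 to 3 and 5 in GRMREmx1-cre. Over all genes GREmx1-cre had 518 higher and 203 lower calls as scaled here and 247 and 193 by the median (263 and 204 after quantile normalization), MREmx1-cre 962 and 595 against 524 and 505, and GRMREmx1-cre 2610 and 1106 against 1539 and 1712.

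**Figure D1:**
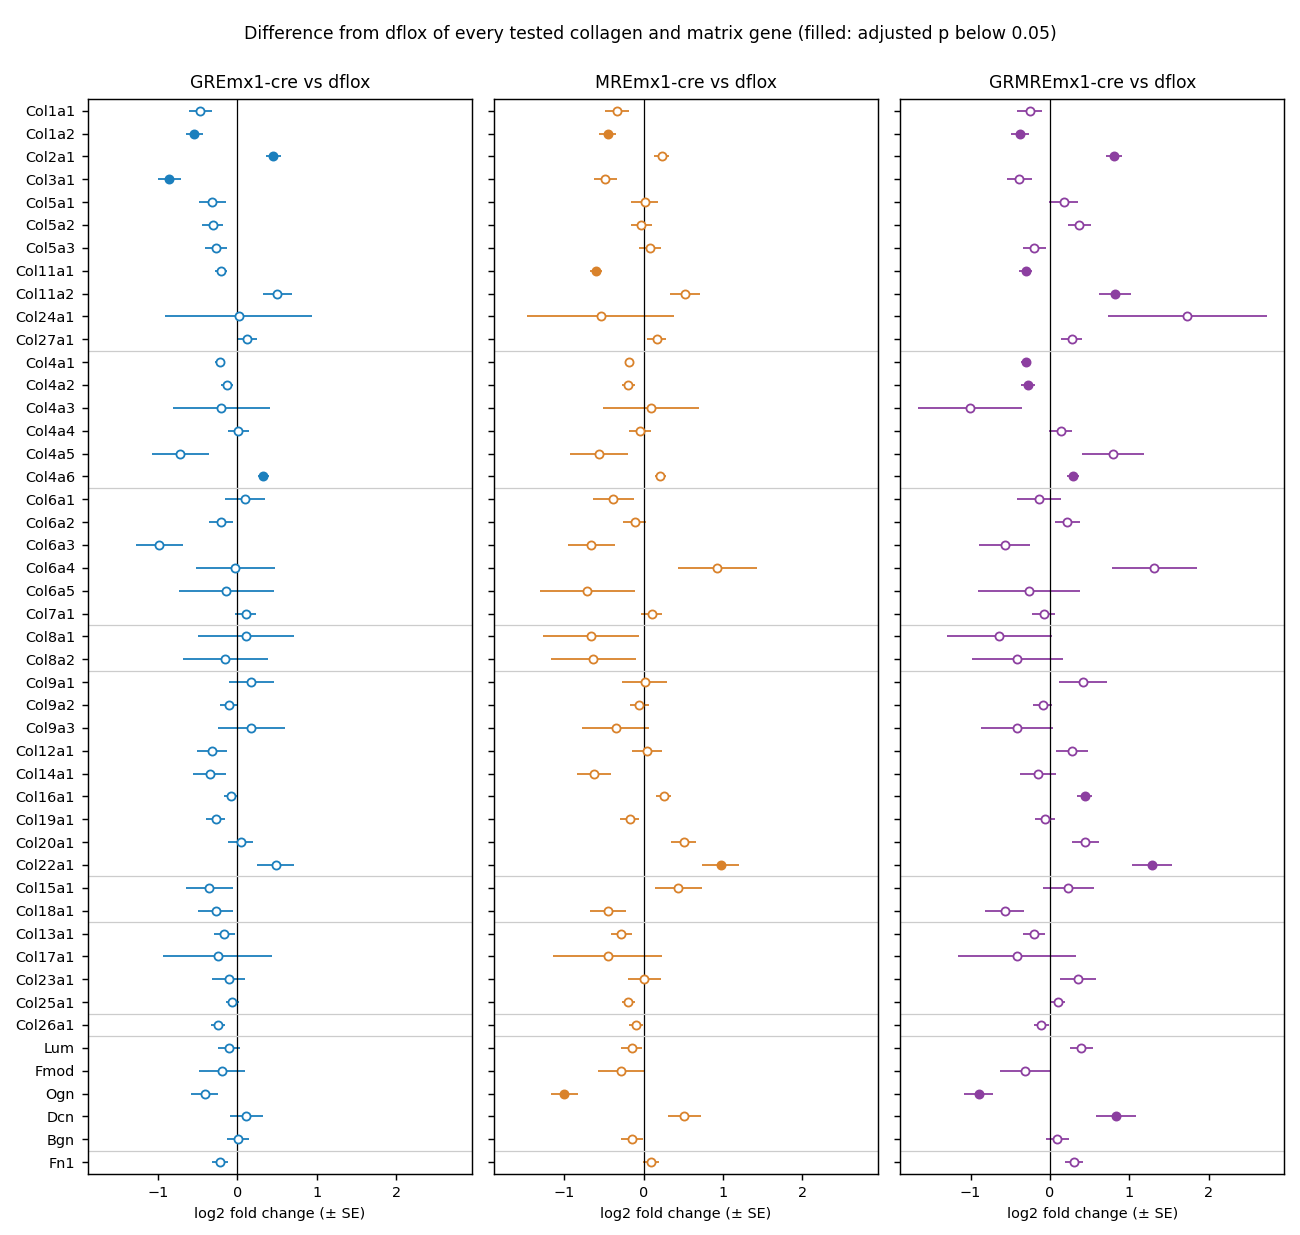
Log2 fold change from dflox (x axis, point with its SE) of the 47 tested collagen and matrix genes (y axis, ordered by role with grey lines between roles) in GREmx1-cre, MREmx1-cre and GRMREmx1-cre, with filled points for adjusted p below 0.05. Col1a2 is filled on the left in all 3 panels, and the 11 filled points of GRMREmx1-cre lie on both sides of 0.

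Type I and type III collagen, the main fibrillar collagens of fibroblasts, were lower than dflox in the GREmx1-cre mice. Col1a2 encodes the alpha 2 chain of type I collagen. Its level was 1.81, 1.5, 1.67 and 1.74 on the dflox arrays, 0.82, 1.33, 1.25 and 1.16 in GREmx1-cre, 1.26, 1.31, 1.34 and 0.99 in MREmx1-cre, and 1.31, 1.32 and 1.28 in GRMREmx1-cre. Every knockout array lay below every dflox array. The gene fell by 0.54 ± 0.11 in GREmx1-cre (adjusted p = 0.0203), by 0.46 ± 0.11 in MREmx1-cre (adjusted p = 0.0267) and by 0.38 ± 0.12 in GRMREmx1-cre (adjusted p = 0.0459), to 68.6%, 72.9% and 77.0% of dflox. These calls sat close to the threshold. Omitting dflox 1, dflox 3 or GREmx1-cre 4 (arrays by replicate number) ended the call in GREmx1-cre (between -0.55 and -0.50), and omitting dflox 1, dflox 3, dflox 4 or MREmx1-cre 4 ended that in MREmx1-cre (between -0.46 and -0.38). With only the groups compared in the fit, the calls in GREmx1-cre (-0.54) and MREmx1-cre (-0.46) ended as well. The call in GRMREmx1-cre survived the omission of dflox 2, GREmx1-cre 1, GREmx1-cre 2 or MREmx1-cre 4 and ended on omitting any other array (between -0.39 and -0.33). It also ended after quantile normalization (-0.36), with no filter (-0.38) and with the replicate number as a block (-0.39).

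Col3a1, which encodes type III collagen of distensible tissues and vessel walls, showed the largest fall among the calls in GREmx1-cre. It read -0.90, -1.32, -0.91 and -1.13 in dflox and -2.27, -1.69, -1.81 and -1.94 in GREmx1-cre, with no overlap. The fall was 0.86 ± 0.15 on the log2 scale, to 55.1% of dflox (adjusted p = 0.00961), and it stayed called without any 1 array (between -0.95 and -0.75). In MREmx1-cre the arrays read -1.67, -1.40, -1.74 and -1.38, also all below dflox, but the difference of -0.48 missed the threshold (adjusted p = 0.0673). GRMREmx1-cre, at -1.71, -1.31 and -1.34, overlapped with dflox and differed from it by -0.39 (adjusted p = 0.115).

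Col1a1, the partner chain of Col1a2 in type I collagen, was not called in any comparison on the probe used. That probe read 0.27, -0.05, 0.24 and 0.23 in dflox, -0.60, -0.10, -0.14 and -0.34 in GREmx1-cre, -0.40, 0.19, 0.02 and -0.46 in MREmx1-cre, and -0.08, -0.05 and -0.13 in GRMREmx1-cre. The difference was -0.47 in GREmx1-cre (adjusted p = 0.109), where no array overlapped with dflox, -0.34 in MREmx1-cre (adjusted p = 0.203) and -0.26 in GRMREmx1-cre (adjusted p = 0.314). A second Col1a1 probe, also above background on all 15 arrays, was lower by -0.61 in GREmx1-cre (adjusted p = 0.00808 over all probes), -0.33 in MREmx1-cre and -0.32 in GRMREmx1-cre.

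The minor fibrillar collagens moved apart. Col11a1, a chain of type XI collagen, which sits in the core of thin fibrils, fell most clearly in MREmx1-cre. Its arrays read -2.02, -2.18, -2.20 and -2.13 in dflox, -2.24, -2.27, -2.52 and -2.31 in GREmx1-cre, -2.83, -2.78, -2.74 and -2.59 in MREmx1-cre, and -2.40, -2.36 and -2.56 in GRMREmx1-cre. None of the knockout arrays reached the dflox range, and the MREmx1-cre arrays were below all others. The fall was 0.60 ± 0.08 in MREmx1-cre, to 65.9% of dflox (adjusted p = 0.000716), and 0.31 ± 0.08 in GRMREmx1-cre (adjusted p = 0.0222), while GREmx1-cre differed by -0.20 (adjusted p = 0.164). The MREmx1-cre call held without any 1 array, but not in the mean of the gene's probes (-0.77), and the GRMREmx1-cre call ended on omitting dflox 1 or GRMREmx1-cre 3 (-0.27 and -0.25). That mean includes a second Col11a1 probe that was above background on 3 arrays only, so no difference is given for it.

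Col2a1, the chain of type II collagen of cartilage, and Col11a2, another type XI chain, went the other way. The Col2a1 probe read -3.07, -3.23, -3.11 and -3.06 in dflox, -2.69, -2.71, -2.72 and -2.54 in GREmx1-cre, -2.83, -3.08, -2.94 and -2.70 in MREmx1-cre, and -2.24, -2.17 and -2.53 in GRMREmx1-cre. It rose by 0.80 ± 0.10 in GRMREmx1-cre, to 175% of dflox (adjusted p = 0.000271), and by 0.45 ± 0.09 in GREmx1-cre (adjusted p = 0.0221), and MREmx1-cre overlapped with dflox (0.23, adjusted p = 0.17). The GRMREmx1-cre call held without any 1 array (between 0.73 and 0.91), and the GREmx1-cre call ended on omitting dflox 2, dflox 3 or GREmx1-cre 4 (between 0.41 and 0.45). A second Col2a1 probe gave 1.14 in GRMREmx1-cre (adjusted p = 0.000249 over all probes) and 0.48 in GREmx1-cre (adjusted p = 0.0707).

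Col11a2 read -0.05, 0.30, 0.02 and -0.79 in dflox and 0.74, 0.63 and 0.71 in GRMREmx1-cre. All GRMREmx1-cre arrays were above all dflox arrays, and the rise was 0.82 ± 0.20, to 177% of dflox (adjusted p = 0.0142). It held without any 1 array (between 0.60 and 0.97), and a second probe gave 0.74 (adjusted p = 0.147 over all probes). GREmx1-cre, at 0.42, 0.30, 0.57 and 0.20, and MREmx1-cre, at 0.21, 0.24, 0.56 and 0.56, overlapped with dflox and were not called (0.50 and 0.52).

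Type V collagen, which starts fibrils, was not called against dflox. Col5a1, Col5a2 and Col5a3 differed by -0.32, -0.31 and -0.27 in GREmx1-cre, by 0.01, -0.03 and 0.09 in MREmx1-cre, and by 0.17, 0.37 and -0.20 in GRMREmx1-cre. Col27a1 differed by 0.12 to 0.27 in the 3 groups. Col24a1 was above background on 4 arrays in all, 1 of dflox, 1 of GREmx1-cre, 2 of GRMREmx1-cre and 0 of MREmx1-cre. Its GRMREmx1-cre arrays read -6.59, -6.25 and -3.84, so no fold over MREmx1-cre is given (limma, adjusted p = 0.267). Of the 11 fibrillar chains, 3 were called in GREmx1-cre, 2 in MREmx1-cre and 4 in GRMREmx1-cre, with 3.15%, 6.81% and 16.3% of all genes, and with medians of -0.27, -0.03 and 0.17.

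The upstream sequences of 4 genes that fell are shown because they were lower in different groups: Col1a2 in all 3, Col3a1 in GREmx1-cre, Ogn and Col11a1 in MREmx1-cre and GRMREmx1-cre. They are the 250 bases before the gene's start in RefSeq's annotation of GRCm38.p6, 5′ to 3′ on the plus strand, at chr6:4505368-4505617, chr1:45311288-45311537, chr13:49607765-49608014 and chr3:114030290-114030539 in that order. Capitals mark a CCAAT box (CCAAT or ATTGG) or a TATA box (TATAAA or TTTATA), found on either strand; in Ogn a pair of TATA matches overlap.
Col1a2: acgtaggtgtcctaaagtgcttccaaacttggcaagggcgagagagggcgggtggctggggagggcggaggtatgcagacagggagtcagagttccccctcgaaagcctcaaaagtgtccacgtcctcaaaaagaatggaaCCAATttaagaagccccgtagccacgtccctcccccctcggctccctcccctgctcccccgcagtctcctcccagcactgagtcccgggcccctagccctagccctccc
Col3a1: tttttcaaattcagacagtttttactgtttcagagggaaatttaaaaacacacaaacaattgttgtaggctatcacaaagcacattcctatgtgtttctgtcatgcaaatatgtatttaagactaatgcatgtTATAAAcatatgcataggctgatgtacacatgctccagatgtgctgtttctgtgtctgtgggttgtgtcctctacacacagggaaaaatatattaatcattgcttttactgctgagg
Ogn: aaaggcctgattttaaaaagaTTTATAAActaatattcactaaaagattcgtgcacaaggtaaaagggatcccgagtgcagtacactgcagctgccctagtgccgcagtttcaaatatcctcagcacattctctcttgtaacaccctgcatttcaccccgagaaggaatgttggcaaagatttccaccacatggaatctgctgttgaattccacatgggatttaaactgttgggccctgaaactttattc
Col11a1: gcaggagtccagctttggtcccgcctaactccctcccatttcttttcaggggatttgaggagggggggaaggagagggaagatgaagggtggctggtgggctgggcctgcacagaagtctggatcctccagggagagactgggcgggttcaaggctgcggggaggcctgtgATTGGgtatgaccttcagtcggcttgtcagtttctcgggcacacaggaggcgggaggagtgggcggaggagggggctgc

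Of the 47 genes, 35 had an upstream sequence in the table, 38 sequences in all. The palindrome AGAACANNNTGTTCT, the form of a full binding site of GR and MR, was in 0 of the 38 and in 0.00913% of 32851 sequences of the same length from all genes. The hexamer AGAACA or TGTTCT was in those of 3 genes (Bgn, Col20a1 and Col9a1), with 16.1% of all sequences. A CCAAT match was in those of 13 genes, among them Col1a2, Col11a1, Col16a1, Col4a1 and Col4a2, with 33.8% of all sequences. A TATA match at any position was in those of 5 (Col11a2, Col13a1, Col17a1, Col3a1 and Ogn), with 12.4%. Such matches describe these 250 bases only.

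Collagen IV is laid down as heterotrimers. Col4a1 and Col4a2, the chains of its common network, were called lower in GRMREmx1-cre on the probe used, by a small margin. Col4a1 read -0.12, -0.12, -0.18 and -0.16 in dflox, -0.25, -0.40, -0.50 and -0.33 in GREmx1-cre, -0.31, -0.38, -0.24 and -0.39 in MREmx1-cre, and -0.56, -0.34 and -0.45 in GRMREmx1-cre. The dflox arrays lay above every knockout array, and the spread of this gene within groups was the lowest of the set (pooled SD 0.081). It fell by 0.30 ± 0.07 in GRMREmx1-cre, to 81.1% of dflox (adjusted p = 0.00806), and the differences of -0.22 in GREmx1-cre (adjusted p = 0.0693) and -0.18 in MREmx1-cre (adjusted p = 0.1) missed the threshold. The call in GRMREmx1-cre held without any 1 array. A second Col4a1 probe gave -0.11 there (adjusted p = 0.461 over all probes), and the mean of the probes was not called (-0.21).

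Col4a2 read 0.43, 0.25, 0.17 and 0.23 in dflox and 0.08, -0.01 and -0.08 in GRMREmx1-cre. These groups did not overlap, and the gene fell by 0.27 ± 0.09, to 82.8% of dflox (adjusted p = 0.0487). The call survived the omission of dflox 3, GREmx1-cre 1 or MREmx1-cre 2 and ended on omitting any other array (between -0.31 and -0.22). It also ended after quantile normalization (-0.27), with no filter (-0.27), with the mean of probes (-0.24) and with only the groups compared in the fit (-0.27). A second Col4a2 probe read -1.06, -1.10, -1.23 and -1.32 in dflox and -1.25, -1.34 and -1.565 in GRMREmx1-cre, and these groups overlapped. Col4a6, a chain of a rarer network of smooth muscle basement membranes, read -2.27, -2.38, -2.36 and -2.27 in dflox, -1.99, -2.10, -1.87 and -2.02 in GREmx1-cre, -2.22, -2.17, -2.04 and -2.002 in MREmx1-cre, and -1.98, -1.92 and -2.17 in GRMREmx1-cre. It rose by 0.33 ± 0.07 in GREmx1-cre (adjusted p = 0.0291) and by 0.30 ± 0.08 in GRMREmx1-cre (adjusted p = 0.0207), with MREmx1-cre at 0.21 (adjusted p = 0.0992).

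Col4a6 had a second probe above background on all 15 arrays that gave -0.11 in GREmx1-cre and -0.04 in GRMREmx1-cre, so the rise was seen with 1 of 2 probes. Median scaling ended both calls (0.27 and 0.21). The GREmx1-cre call ended on omitting dflox 1, 2 or 3 or GREmx1-cre 1, 3 or 4 (between 0.28 and 0.34), and the GRMREmx1-cre call on omitting dflox 2, GRMREmx1-cre 1 or GRMREmx1-cre 2 (between 0.24 and 0.27). Col4a3 and Col4a4, chains known from kidney basement membrane, and Col4a5 were not called against dflox. Col4a4 differed from it by -0.04 to 0.13, and Col4a3 was above background on 1 dflox array and 2 MREmx1-cre arrays.

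Type VI collagen, the beaded filament of fibroblasts, and type VII, the anchoring fibril, were not called in any comparison on the probes used. Col6a3 read -1.73, -2.24, -1.20 and -2.27 in dflox and -3.07, -3.14, -2.74 and -2.44 in GREmx1-cre. The groups did not overlap, but at -0.99 ± 0.30 the difference missed the threshold (adjusted p = 0.0941), as did -0.66 in MREmx1-cre and -0.57 in GRMREmx1-cre. Col6a1 and Col6a2, which assemble with Col6a3, differed by 0.10 and -0.20 in GREmx1-cre, -0.38 and -0.12 in MREmx1-cre, and -0.14 and 0.22 in GRMREmx1-cre. Col7a1 differed by -0.08 to 0.10. Col6a4 differed by 0.93 in MREmx1-cre and 1.31 in GRMREmx1-cre on the probe used, with a wide spread (adjusted p = 0.301 and 0.119), and a second probe gave 0.67 in GRMREmx1-cre (adjusted p = 0.00521 over all probes) and 0.51 in GREmx1-cre (adjusted p = 0.0493).

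Type VIII collagen, a short-chain network of endothelium and of several epithelia, varied among arrays more than among groups. Col8a1 read 2.62, 1.38, 2.71 and 1.35 in dflox, 1.64, 2.19, 2.10 and 2.56 in GREmx1-cre, 1.62, -0.85, 2.72 and 1.89 in MREmx1-cre, and 1.61, 1.05 and 1.47 in GRMREmx1-cre, so that 1 MREmx1-cre array stood far below all others. Differences from dflox were 0.11, -0.67 and -0.64, none of them called. On the same MREmx1-cre array, replicate 2, Col8a2 read -2.41, Col9a3 -1.50, Col18a1 -0.65 and Col17a1 -5.94, each the lowest of the 15. That array also had the lowest choroid plexus markers: the mean deviation of the 11 tested markers from their own average over arrays was -4.04, while the other 14 arrays lay between -0.49 and 1.22. None of the 11 markers was called against dflox in limma, with 0 at an unadjusted p below 0.05 in each group. All were below it in MREmx1-cre and GRMREmx1-cre, with medians of -1.11 and -0.59, beside -0.16 in GREmx1-cre. The MREmx1-cre median includes replicate 2. Replicates 1, 3 and 4 had mean deviations of 0.07, 1.03 and 0.29, inside the dflox range of -0.30 to 1.22.

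**Figure D2:**
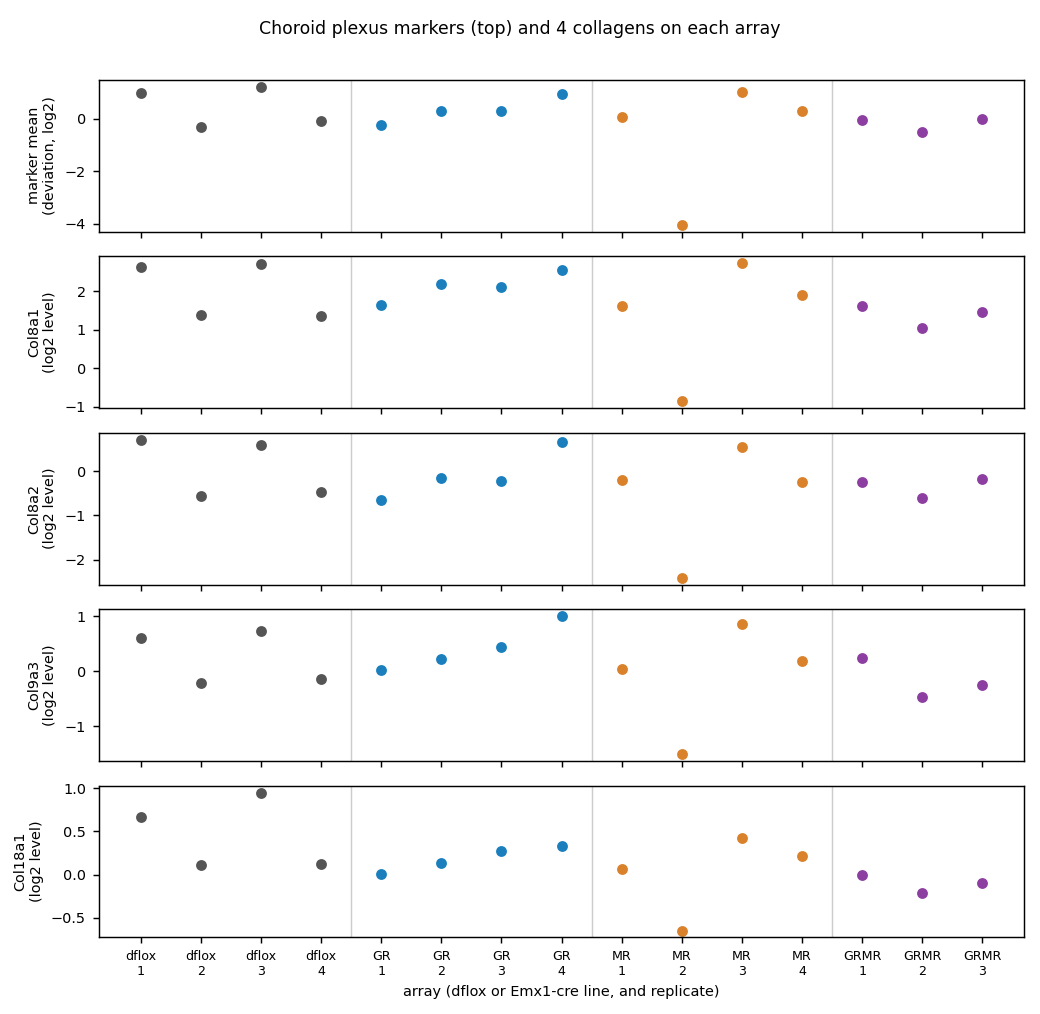
Mean deviation of 11 choroid plexus markers from their average over arrays (top panel, log2) and log2 level of Col8a1, Col8a2, Col9a3 and Col18a1 (lower panels) on each of the 15 arrays, grouped by line along the x axis. The lowest point of every panel is MREmx1-cre replicate 2, at -4.04 for the markers and -0.85 for Col8a1, and dflox replicates 1 and 3 are above dflox replicates 2 and 4 in every panel.

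The arrays highest in choroid plexus markers, dflox replicates 1 and 3, GREmx1-cre replicate 4 and MREmx1-cre replicate 3, read 2.62, 2.71, 2.56 and 2.72 for Col8a1, the 4 highest values of that gene. The part of tissue content in the differences of these collagens was not tested. Leaving out GREmx1-cre replicate 1 and MREmx1-cre replicate 2 together gave 3, 4 and 10 calls in the set against dflox in place of 4, 4 and 11.

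Among fibril-associated collagens, which coat larger fibrils, Col16a1 and Col22a1 were higher. Col22a1, known from tissue junctions, read -1.06, -0.37, -0.48 and -1.67 in dflox, -0.30, -0.50, -0.29 and -0.56 in GREmx1-cre, 0.02, -0.18, 0.38 and 0.06 in MREmx1-cre, and 0.44, 0.52 and 0.22 in GRMREmx1-cre. Every array of the mice lacking MR was above every dflox array, and GREmx1-cre overlapped with dflox. The rise was 0.97 ± 0.23 in MREmx1-cre (adjusted p = 0.0258) and 1.29 ± 0.25 in GRMREmx1-cre (adjusted p = 0.00409), or 196% and 244% of dflox. The GRMREmx1-cre call held without any 1 array (between 1.03 and 1.46), and the MREmx1-cre call ended on omitting dflox 1, MREmx1-cre 3 or MREmx1-cre 4 (between 0.86 and 0.97). Over all omissions of 1 array the MREmx1-cre rise lay between 0.71 and 1.14. Its call also ended with only the groups compared in the fit (0.97).

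Col16a1 read 0.47, 0.51, 0.77 and 0.47 in dflox, 0.26, 0.61, 0.59 and 0.45 in GREmx1-cre, 0.66, 0.92, 0.78 and 0.86 in MREmx1-cre, and 0.96, 1.02 and 1.003 in GRMREmx1-cre. The GRMREmx1-cre arrays were above all others, and the rise over dflox was 0.44 ± 0.10 (adjusted p = 0.00788), called without any 1 array (between 0.41 and 0.51) but not under median scaling (0.36). MREmx1-cre differed from dflox by 0.25 (adjusted p = 0.116). The other 7 fibril-associated chains were not called against dflox; among them, Col20a1 did not overlap with dflox in MREmx1-cre (0.51, adjusted p = 0.0706) or GRMREmx1-cre (0.45, adjusted p = 0.0894), and Col14a1 differed by -0.63 in MREmx1-cre (adjusted p = 0.0996).

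The multiplexins Col15a1 and Col18a1, basement membrane collagens that carry anti-angiogenic fragments, were not called. Col18a1 read 0.67, 0.11, 0.95 and 0.12 in dflox and -0.01, -0.22 and -0.10 in GRMREmx1-cre, which did not overlap but differed by -0.57 ± 0.24 (adjusted p = 0.134), and Col15a1 differed by -0.35, 0.44 and 0.23 in the 3 groups. The transmembrane collagens were not called either: Col13a1 differed by -0.17, -0.28 and -0.20, Col17a1 by -0.25, -0.45 and -0.42, Col23a1 by -0.11, 0.01 and 0.35, and Col25a1 by -0.06, -0.19 and 0.10. A further probe of Col23a1, above background on 13 arrays, was called at 0.67 in GRMREmx1-cre (adjusted p = 0.0091 over all probes). Col26a1 differed by -0.24, -0.10 and -0.11 (adjusted p = 0.147 at the lowest).

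The small leucine-rich proteoglycans bind collagen fibrils and set their width and spacing, and within this family Ogn and Dcn went opposite ways. Ogn, osteoglycin, read 0.61, -0.17, 0.20 and 0.47 in dflox, -0.53, 0.11, -0.16 and 0.04 in GREmx1-cre, -0.56, -0.70, -0.68 and -0.94 in MREmx1-cre, and -0.59, -0.72 and -0.55 in GRMREmx1-cre. The arrays of the mice lacking MR lay below every array of dflox and of GREmx1-cre, and GREmx1-cre overlapped with dflox. Ogn fell by 0.9997 ± 0.17 in MREmx1-cre, to 50.01% of dflox (adjusted p = 0.00384), and by 0.90 ± 0.18 in GRMREmx1-cre, to 53.7% (adjusted p = 0.00511), and the difference in GREmx1-cre was -0.41 (adjusted p = 0.203). Both calls held without any 1 array, between -1.15 and -0.89 in MREmx1-cre and between -1.05 and -0.79 in GRMREmx1-cre.

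Dcn, decorin, the proteoglycan that binds type I collagen, read 3.80, 2.90, 3.92 and 4.03 in dflox, 3.57, 3.92, 3.87 and 3.73 in GREmx1-cre, 4.28, 4.27, 3.92 and 4.21 in MREmx1-cre, and 4.60 and 4.39 in GRMREmx1-cre, where the spot of replicate 1 had an outlier flag and was left out. The rise in GRMREmx1-cre was 0.84 ± 0.25, to 179% of dflox, with n = 2 arrays there (limma, adjusted p = 0.0439). This call ended on omitting dflox 1, GREmx1-cre 2, 3 or 4, MREmx1-cre 1, 2 or 4 or any GRMREmx1-cre array (between 0.73 and 0.94), under median scaling (0.77) and with the replicate number as a block (0.90). It also ended with no filter and with only the groups compared in the fit (0.84 in both). Over all omissions of 1 array the rise lay between 0.58 and 0.96. MREmx1-cre differed from dflox by 0.51 (adjusted p = 0.177) and GREmx1-cre by 0.11.

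Lum, lumican, read 0.37, 0.00, 0.52 and 0.00 in dflox, -0.15, 0.20, 0.17 and 0.24 in GREmx1-cre, 0.07, -0.12, 0.19 and 0.15 in MREmx1-cre, and 0.48, 0.87 and 0.51 in GRMREmx1-cre. It was not called against dflox, with differences of -0.11, -0.15 and 0.40 (adjusted p = 0.0901 in GRMREmx1-cre). Bgn, biglycan, the close relative of decorin, differed by 0.01, -0.15 and 0.09, and Fmod, fibromodulin, by -0.20, -0.29 and -0.31, none of them called. Fn1, fibronectin, differed by -0.22, 0.09 and 0.30 (adjusted p = 0.276, 0.664 and 0.0933).

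**Figure D3:**
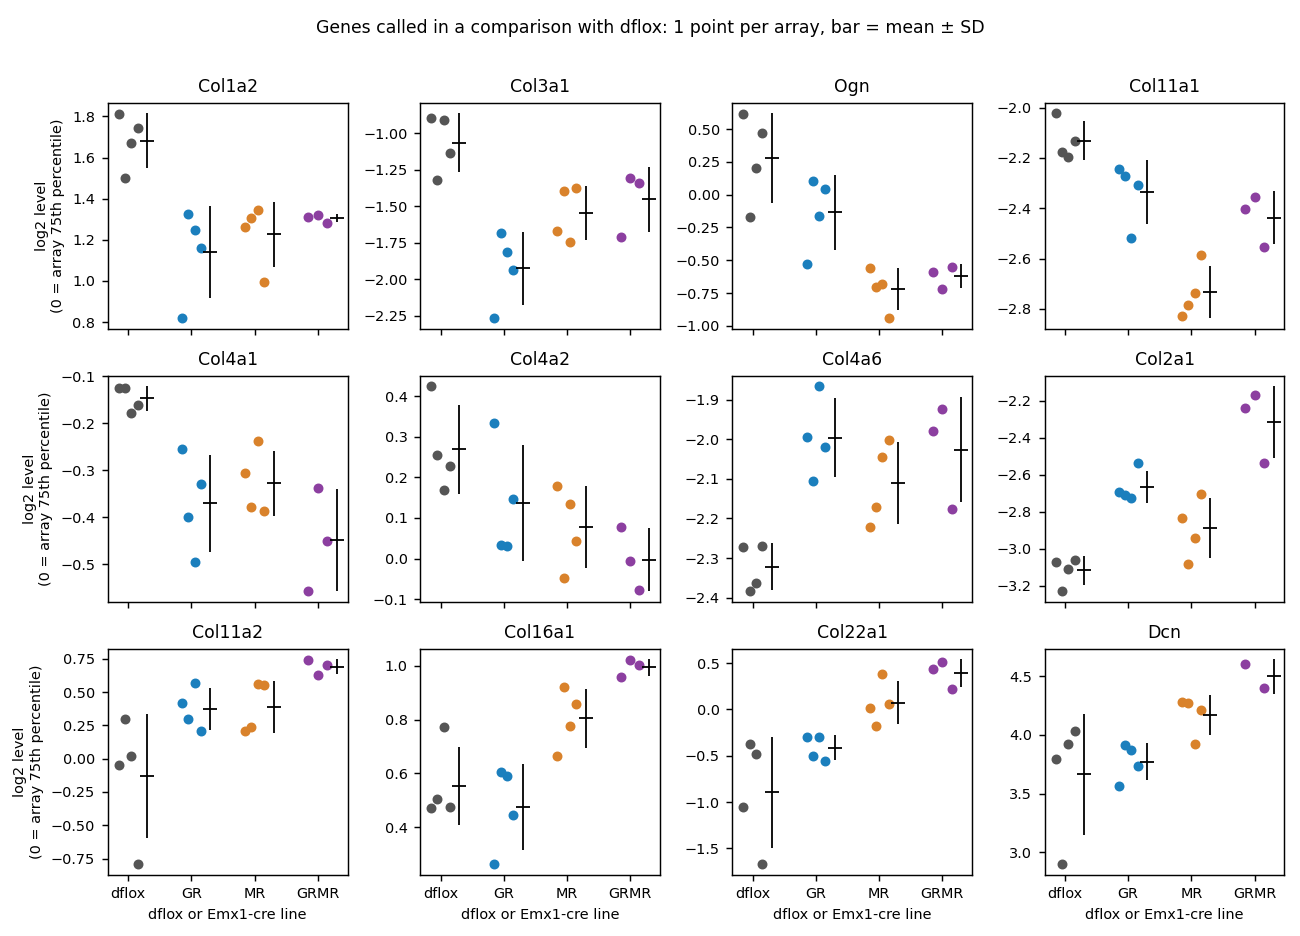
Log2 level (y axis, 0 is the 75th percentile of the array) of the 12 genes of the set called in a comparison with dflox, with 1 point per array and a bar for mean ± SD, for dflox and the GR, MR and GRMR Emx1-cre lines (x axis). Ogn and Col22a1 separate the mice lacking MR from dflox, Col3a1 is lowest in the GR line, and Dcn has 2 points in the GRMR line.

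The knockouts were also compared with each other. From GREmx1-cre to GRMREmx1-cre 7 of the 47 genes passed, all higher, which is 14.9% of the set beside 16.1% of all genes, 9.23% of all genes being called higher and 6.91% lower. Median scaling gave 5 calls in the set, all higher, and turned the balance over all genes from 2110 higher and 1580 lower to 1382 and 1462. The 7 genes called as scaled here included Fn1 (0.52 ± 0.11, limma, adjusted p = 0.00854), Col5a2 (0.68 ± 0.14, adjusted p = 0.00711) and Col16a1 (0.52 ± 0.10, adjusted p = 0.00346). The others were Col22a1 (0.81, adjusted p = 0.0449), Lum (0.50, adjusted p = 0.036), Col2a1 (0.35, adjusted p = 0.031) and Col4a5 (1.52, adjusted p = 0.0196). Only Fn1, Col5a2 and Col16a1 stayed called without any 1 array. Fn1 read -2.01, -1.79, -1.72 and -1.58 in GREmx1-cre and -1.09, -1.24 and -1.44 in GRMREmx1-cre, and Col5a2 read -3.71, -3.82, -3.96 and -3.51 against -2.94, -2.95 and -3.31. Neither gene overlapped between these lines, while dflox, at -1.57, -1.67, -1.61 and -1.36 for Fn1 and -3.23, -3.71, -3.34 and -3.47 for Col5a2, overlapped with both.

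A second Fn1 probe gave 0.38 for the same comparison (adjusted p = 0.0837 over all probes). Col4a5 was above background on 2 of 4 GREmx1-cre arrays, and its call ended on omitting GRMREmx1-cre 2 or 3 (1.10 and 1.37). The call of Lum ended on omitting GREmx1-cre 1, 2 or 3 or GRMREmx1-cre 2 or 3 (between 0.38 and 0.56), under median scaling (0.48) and with the replicate number as a block (0.50). That of Col2a1 ended on omitting GREmx1-cre 1, 2 or 3 or GRMREmx1-cre 1 or 2 (between 0.28 and 0.34). The call of Col22a1 survived the omission of dflox 2, 3 or 4 or MREmx1-cre 3 and ended on omitting any other array (between 0.74 and 0.89), under median scaling (0.78) and with the replicate number as a block (0.70).

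From MREmx1-cre to GRMREmx1-cre 1 gene of the set passed, with 2.98% of all genes (2.35% higher, 0.625% lower; by the median, 288 higher and 170 lower calls in place of 538 and 143): Col2a1 rose by 0.58 ± 0.10 (adjusted p = 0.00861), a call that ended on omitting GRMREmx1-cre 2 (0.50). From GREmx1-cre to MREmx1-cre 3 genes passed, 1 higher and 2 lower, with 9.33% of all genes (4.92% higher, 4.42% lower; by the median, 1079 higher and 621 lower calls in place of 1124 and 1010). Median scaling left 0 higher and 1 lower call in the set. Col11a1 fell by 0.40 ± 0.08 (adjusted p = 0.00584) and held without any 1 array but not without GREmx1-cre 1 and MREmx1-cre 2 together (-0.35). Ogn fell by 0.59 ± 0.17 (adjusted p = 0.0463), a call that survived the omission of dflox 1, dflox 2 or GREmx1-cre 1 and ended on omitting any other array (between -0.64 and -0.51), under median scaling (-0.55) and with the replicate number as a block (-0.59). Col16a1 rose by 0.33 ± 0.09 (adjusted p = 0.0361), a call that ended on omitting GREmx1-cre 1 or 4 or MREmx1-cre 2, 3 or 4 (between 0.26 and 0.34) and under median scaling (0.36).

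The interaction asks whether the difference made by losing MR was the same with and without GR; a value of 0 means that both losses add up on the log2 scale. Of the 47 genes, 10 had a value below 0, with 51.8% of all genes, and 37 a value above 0, with a median of 0.25 beside -0.01 over all genes. Col11a1 alone passed (0.50 ± 0.11, adjusted p = 0.0494), with 1.29% of all genes (0.512% higher, 0.779% lower). Its fall was -0.20 and -0.60 with 1 receptor lost and -0.31 with both. The call survived only the omission of MREmx1-cre 4 and ended on omitting any other array (between 0.44 and 0.56), and it was not made with no filter, with the mean of probes or with trend and robust. Col3a1 was at 0.95 (adjusted p = 0.0504) and Col1a2 at 0.62 (adjusted p = 0.0788), both just short of the threshold, so a difference of their falls between backgrounds was not established by this test. The interaction uses all 4 slides.

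Values that stand apart came from few arrays. GREmx1-cre replicate 1 had the lowest level of 13 of the 47 genes, among them Col1a1, Col1a2, Col3a1, Col5a1, Fn1, Fmod and Lum, and MREmx1-cre replicate 2 of 11. GREmx1-cre replicate 1 was also the lowest array in the mean deviation of fibroblast markers outside the set (-0.34) and the highest in that of thalamus and habenula markers (0.50), where the other arrays lay between -0.21 and 0.19. Without GREmx1-cre replicate 1 and MREmx1-cre replicate 2 the median of the set was -0.08 in GREmx1-cre and -0.08 in MREmx1-cre. GREmx1-cre replicate 1 also had 188 outlier spots, and the other arrays had 53 to 103. Its correlations with the other GREmx1-cre arrays were 0.981 to 0.983, and all other pairs within groups were at 0.988 to 0.992. The part of these tissues and of array quality in the results was not tested.

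Markers of leptomeningeal and perivascular fibroblasts that are no members of the set, such as Aldh1a2, Foxc1 and Slc22a6, were present: 17 of 18 were tested. Below dflox were 15 of the 17 in GREmx1-cre, 16 in MREmx1-cre and 12 in GRMREmx1-cre, with medians of -0.18, -0.14 and -0.11, and the calls among them (limma) were 0, 0 and 1, with 0, 1 and 3 at an unadjusted p below 0.05. The called gene was Cemip, a hyaluronan-degrading protein, at -0.88 ± 0.13 in GRMREmx1-cre (adjusted p = 0.000863). Their mean deviation had its lowest and highest values at -0.17 and 0.40 among the dflox arrays, -0.34 and 0.07 in GREmx1-cre, -0.22 and 0.08 in MREmx1-cre, and -0.16 and 0.06 in GRMREmx1-cre, so the groups overlapped. Their part in the lower Col1a2, Col3a1 and Ogn was not tested.

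**Figure D4:**
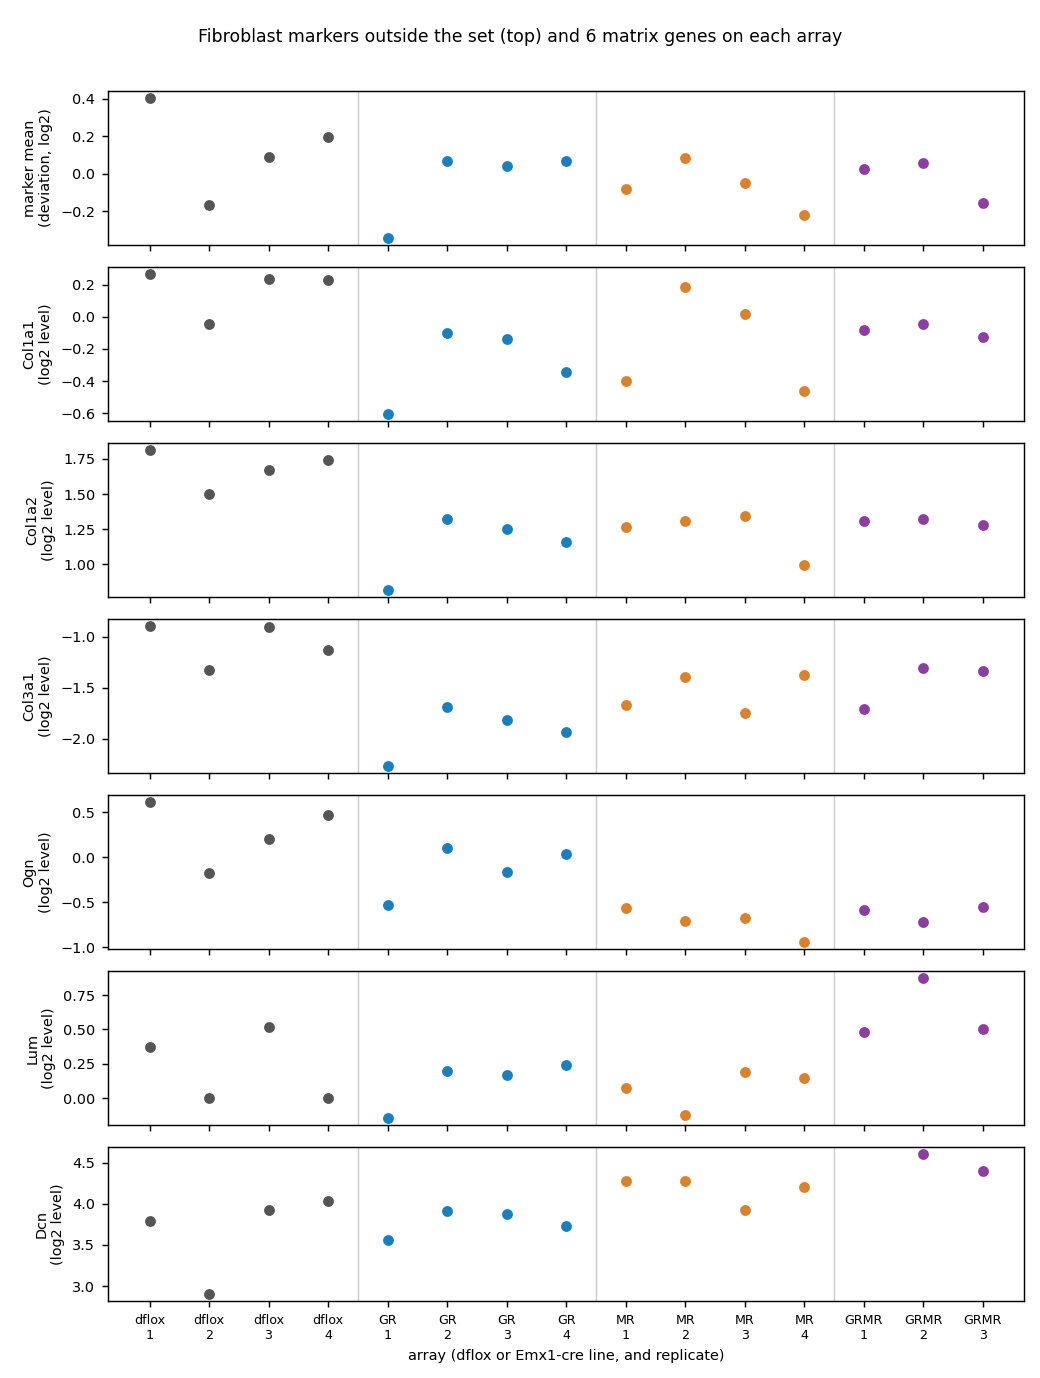
Mean deviation of 17 fibroblast markers outside the set from their average over arrays (top panel, log2) and log2 level of Col1a1, Col1a2, Col3a1, Ogn, Lum and Dcn (lower panels) on each array, grouped by line along the x axis. GREmx1-cre replicate 1 is the lowest array for the markers (-0.34), Col1a1, Col1a2, Col3a1 and Lum, whereas Ogn is lowest in MREmx1-cre and Dcn in dflox; Dcn has no point for GRMREmx1-cre replicate 1.

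Other cells of the tissue were followed by their markers, whose counts stand beside 2.27%, 4.21% and 11.4% of all genes called higher and 0.888%, 2.6% and 4.84% called lower in GREmx1-cre, MREmx1-cre and GRMREmx1-cre. Among 11 mural cell markers Higd1b rose in MREmx1-cre (0.24) and Notch3 in GRMREmx1-cre (0.40), and 0 of 12 endothelial markers were called in limma in any comparison with dflox, with medians of -0.07, 0.07 and 0.16 and 0, 2 and 2 markers at an unadjusted p below 0.05. Of 10 astrocyte markers 1 rose and 1 fell in GREmx1-cre, 1 rose in MREmx1-cre, and 3 rose and 2 fell in GRMREmx1-cre, with Aqp4 at 0.76 and Aldoc at -0.54. Microglial markers rose in 1, 3 and 7 of 10 cases, C1qc in all 3 groups (0.30, 0.30 and 0.50). Of 12 hippocampal neuron markers 0 were called in GREmx1-cre, 1 rose and 2 fell in MREmx1-cre, and 1 rose and 6 fell in GRMREmx1-cre, where Cabp7 was at -0.90. Of 9 thalamus and habenula markers Plekhg1 and Lef1 rose in MREmx1-cre (0.45 and 0.21) and, with Tcf7l2 (0.44), in GRMREmx1-cre (0.72 and 0.22). Below dflox were 6 of the 9 in GREmx1-cre, 5 in MREmx1-cre and 4 in GRMREmx1-cre, with medians of -0.03, -0.09 and 0.06. Of 12 markers of oligodendrocytes and progenitors 0 were called against dflox in limma, with 2, 3 and 1 at an unadjusted p below 0.05. These lists share no part of the rule that chose the set.

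The pathway around the set was followed in the enzymes that fold, trim and cross-link collagen, and in receptors, proteases and other matrix genes, beside the same shares of all genes (3.15%, 6.81% and 16.3% in either direction). Of 26 tested, 1 rose in GREmx1-cre, 1 rose and 1 fell in MREmx1-cre, and 1 rose and 3 fell in GRMREmx1-cre, with medians of -0.05, -0.08 and -0.09. Adamts14, which removes the amino-terminal propeptide of procollagen, rose in all 3 groups, by 0.42 ± 0.07, 0.28 ± 0.07 and 0.57 ± 0.08 (adjusted p = 0.00954, 0.0355 and 0.000446). Bmp1, which removes the carboxy-terminal propeptide, fell by 0.36 ± 0.09 in MREmx1-cre and by 0.42 ± 0.10 in GRMREmx1-cre (adjusted p = 0.0338 and 0.0103). In GRMREmx1-cre P4ha2, a prolyl hydroxylase subunit, and Loxl1, a cross-linking oxidase, also fell (-0.50 and -0.56, adjusted p = 0.0223 and 0.0482).

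Of 8 tested collagen receptors, Itga11, the integrin subunit that binds fibrillar collagen on fibroblasts, was the only one called against dflox. It fell by 1.02 ± 0.16 in MREmx1-cre and by 1.12 ± 0.17 in GRMREmx1-cre (adjusted p = 0.00253 and 0.001) and differed by 0.16 in GREmx1-cre (adjusted p = 0.644). Among 17 proteases and inhibitors 0 were called in GREmx1-cre, while the membrane-type protease Mmp17 (-0.47 and -0.57) and the secreted protease Adamts1 (-0.64 and -0.70) fell in MREmx1-cre and GRMREmx1-cre, and the inhibitor Timp1 rose in GRMREmx1-cre (0.43, adjusted p = 0.0363).

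Of 33 other basement membrane and matrix genes, 1 fell in GREmx1-cre, 1 rose and 2 fell in MREmx1-cre, and 4 rose and 1 fell in GRMREmx1-cre. Without a threshold, 22, 23 and 21 of the 33 were below dflox in these groups, with medians of -0.15, -0.09 and -0.12. Over all genes 44.3%, 41.1% and 43.2% were below 0. Sparc, a collagen-binding glycoprotein, fell in all 3, by 0.65 ± 0.11, 0.43 ± 0.11 and 0.88 ± 0.12 (adjusted p = 0.0087, 0.034 and 0.00041), and Fbn1, fibrillin of elastic microfibrils, fell by 0.62 in MREmx1-cre (adjusted p = 0.0336). The laminin chain Lamb3 rose in MREmx1-cre (0.88) and GRMREmx1-cre (0.85), and Tnc, tenascin C, Efemp1, a fibulin, and Lama3, a laminin chain, rose in GRMREmx1-cre (0.84, 0.36 and 0.47).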

How the data were processed

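The scanner output was written by Agilent Feature Extraction, version 12.0 (submitters' processing notes). Its processed signal is, per the file headers, a background-corrected intensity in arbitrary units; other columns used, also per the file headers, hold flags of 0 or 1 for spots that are well above background, saturated or outliers. The intensity in the authors' deposited value table equalled it at 45018 of 45018 spots on each array. Starting from log2 of this intensity, each array was centred on its 75th percentile over the 43379 spots other than controls, 1281 spots with outlier flags were left out, and spots of a probe were averaged. Accessions of probes were named through a RefSeq gene table of GRCm38.p6. A probe was tested if 3 or more arrays had it well above background, and a gene was represented by its probe of highest mean, which gave 22864 genes from 30873 probes. The number of arrays limits the precision.

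The model, fitted by lmFit and eBayes of limma 3.58.1 under R 4.3.3, had a mean for each of the 4 groups and took all 15 arrays. Adjusted p is Benjamini-Hochberg over all genes, or over all probes where a second probe is given, with a threshold of 0.05. The script was tested on simulated data. Replicate numbers are slide positions. Same-numbered arrays of different groups correlated between -0.026 and 0.194 in their deviations from the group means, most of them above 0. Differently numbered arrays correlated between -0.147 and 0.113. The numbers were not used as pairs in the main model, and whether arrays of 1 slide position share an effect was not tested. Named are all genes of the set called in a comparison, the 6 matrix genes and Col1a1, Col1a2 and Col3a1, the receptors, in each role group the gene of highest mean and that of lowest adjusted p, and from each pathway or marker list up to 3 called genes of lowest adjusted p; other genes were named after their values were seen. The set and the lists were chosen with earlier results of these data known. Alternatives tried were median scaling, quantile normalization, the deposited value table, normexp background correction (offset 50), no filter, a filter of 12 arrays, the mean of a gene's probes, only the groups compared, eBayes with trend and robust, the replicate number as a block, each array left out, and 2 arrays left out together. Python 3.11.15 and matplotlib 3.10.9 drew the figures.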

Additional observations from a re-analysis of the deposited data

Results flagged for a closer look

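On 8 occasions among 141 groups of 4 arrays, 1 array of a group stood apart by Dixon's test at the 95% level, which chance gives in about 1 of 20 groups. Values are log2 levels. Col16a1 was at 0.77 on dflox replicate 3 (others 0.47 to 0.51), Col1a1 at -0.045 on dflox replicate 2 (others 0.23 to 0.27) and Col23a1 at -2.52 on dflox replicate 2 (others -1.83 to -1.78). In GREmx1-cre, Col24a1 was at -4.26 on replicate 1 (others -8.50 to -8.11), Col6a4 at -4.32 on replicate 3 (others -2.27 to -2.06) and Col2a1 at -2.54 on replicate 4 (others -2.72 to -2.69). In MREmx1-cre, Col19a1 was at -1.54 (others -0.99 to -0.96) and Col6a1 at -2.33 (others -1.79 to -1.69), both on replicate 3.

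For Col11a1 the interaction test put the effect of losing MR apart between mice with and without GR, at 0.50 ± 0.11 (limma, adjusted p = 0.0494), just inside the threshold. The call was lost on omitting 14 of the 15 arrays, each in turn (all but MREmx1-cre replicate 4; between 0.44 and 0.56), and with no filter, the mean of probes, and trend with robust.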

How the results depend on the processing

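Counts are of genes called, in the order set, then all genes. The deposited value table gave the same result in all 153 cases compared. It equals the processed signal at every spot, so this outcome was fixed in advance and is no separate check. Replicate numbers were not used as pairs in the main model. With the replicate number as a block, 4, 4 and 10 genes of the set were called in GREmx1-cre, MREmx1-cre and GRMREmx1-cre against dflox. The block gave 5 from GREmx1-cre to GRMREmx1-cre, 1 from MREmx1-cre to GRMREmx1-cre, 2 from GREmx1-cre to MREmx1-cre and 1 in the interaction. Over all genes the counts were 929, 1833, 3833, 3651, 801, 2412 and 307, in place of 721, 1557, 3716, 3690, 681, 2134 and 295. For GREmx1-cre against dflox, all-gene counts were 440 with median scaling, 467 with quantile normalization, 471 with no filter and 414 without GREmx1-cre replicate 1 and MREmx1-cre replicate 2, and fitting only the groups compared gave 2 and 346. For MREmx1-cre against dflox, median scaling gave 1029 over all genes and only the groups compared gave 2 and 695. From GREmx1-cre to GRMREmx1-cre no filter gave 4 in the set. From MREmx1-cre to GRMREmx1-cre only the groups compared gave 0 and 420, and trend with robust gave 2 in the set. From GREmx1-cre to MREmx1-cre the set had 1 call with median scaling, 1 with no filter, 1 with only the groups compared (1238 over all genes) and 1 without both arrays (1104 over all genes). For the interaction the set had 0 calls with no filter (138 over all genes), with the mean of probes and without both arrays (178 over all genes), and 2 with the stricter filter; median scaling gave 182 over all genes.

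Normexp on median signals was chosen after seeing the data, because the scanner output did not hold the planned mean signals. It fitted a background mean of -30.6, -804 and -107 on the GRMREmx1-cre arrays and between -0.331 and 2.42 on the others. It gave 0 and 13 calls for GREmx1-cre, 1 and 105 for MREmx1-cre and 26 and 14111 for GRMREmx1-cre against dflox, 27 and 14076 from GREmx1-cre to GRMREmx1-cre, 23 and 13661 from MREmx1-cre to GRMREmx1-cre, 0 and 173 from GREmx1-cre to MREmx1-cre, and 0 and 1 in the interaction. The median of the set became 0.63 in GRMREmx1-cre against dflox, 0.72 against GREmx1-cre, 0.54 against MREmx1-cre and 0.64 in the interaction, and the median of all genes 0.42, 0.42, 0.40 and 0.38. Against dflox, Col13a1 (0.63), Col5a3 (0.73), Col4a3 (1.62), Col14a1 (0.997), Col11a1 (0.45) and Col6a5 (1.36) reversed in GRMREmx1-cre.

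Leaving out each array in turn gave, for the set, all genes and the median of the set: 1 to 4, 268 to 783 and -0.21 to -0.08 for GREmx1-cre; 2 to 5, 1013 to 1591 and -0.18 to -0.08 for MREmx1-cre; 7 to 12, 2265 to 3897 and -0.059 to 0.11 for GRMREmx1-cre, each against dflox. It gave 3 to 9, 2079 to 3789 and 0.14 to 0.21 from GREmx1-cre to GRMREmx1-cre, 0 to 2, 230 to 757 and 0.14 to 0.23 from MREmx1-cre to GRMREmx1-cre, 1 to 4, 1438 to 2139 and -0.0029 to 0.06 from GREmx1-cre to MREmx1-cre, and 0 to 2, 83 to 434 and 0.17 to 0.37 in the interaction. The cause of these shifts was not tested.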
